A study of Mus musculus with 4 samples.

Results

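The regions described here are the high-scoring Musashi-1 CLIP-seq intervals that were called in the second induced mouse library and in no other library at or near the same place. They were selected on 2 measured values from the peak list of TRE-Msi1 replicate 2, as intervals with a score of 12 or higher and no interval of the other 3 lists within 500 bp, edge to edge, on the same strand. Identical intervals were counted once, with the higher score. This gave 2144 intervals, called private below, of 4834 distinct intervals at that score, of 40361 distinct intervals in the list and of 240811 rows in the 4 lists of the series. The score and the positions in all 4 lists chose them, so their number, their scores and the gap of 500 bp are a description and carry no test.

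Musashi-1 (Msi1) is an RNA-binding protein with RNA recognition motifs that favour short stretches around uracil, adenine and guanine, often in the untranslated region behind the stop codon. By binding there it changes how much protein an mRNA gives. In the intestine it is known from the stem cells at the base of the crypts, and raised levels go with tumour growth. CLIP-seq uses ultraviolet light to link a protein to bound RNA, recovers the protein with an antibody and sequences the RNA that comes with it, and a peak is a place where such fragments pile up on a strand.

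The WT group consisted of 2 libraries from crypts of wild-type mice without doxycycline. The TRE-Msi1 group consisted of 2 libraries from total epithelial cells of mice that carry Msi1 under a tetracycline-responsive element, 24 h after the start of doxycycline. The labels name neither the driver that switches the transgene on nor the strain and age of the mice. All 4 libraries are intestinal epithelial cells with an Msi1 antibody, and the protocols name 2 mice a group. Genotype, doxycycline and the cells taken changed together and cannot be told apart, and both induced libraries share all of them, so an interval found only in the second is not tied to induction by the design. The WT lists held 4863 and 5578 rows and the TRE-Msi1 lists 189594 and 40776, with median widths of 74, 75, 40 and 75 bp. Read depth per library is unknown, the unit of the score is not stated, and there is no replicate of an interval found in 1 library. Values are therefore given with 95% Wilson intervals where they are shares, which treat intervals as independent and cover counting error only. Regions are named by position in the mouse build mm9, because gene annotation and genome sequence of that build were not used here.

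The private intervals made up 44.4% of the high-scoring intervals of their library (2144 of 4834). For intervals scored under 12 the share without a neighbour was 82.1% (29157 of 35527), and for the whole list it was 77.6% (31301 of 40361). Lack of a neighbour was thus less frequent at high scores than in the rest of the same list. It fell through every score class, from 86.8% (86.2 to 87.3%) at scores of 4 to 5 to 75.1% at 8 to 11, 52.0% (50.4 to 53.7%) at 12 to 19 and 28.3% (25.9 to 30.8%) at 20 to 49. At scores of 50 or more only 12 of 157 intervals (7.64%, 4.43 to 12.9%) were private. In WT replicate 2, whose scores are whole numbers too, 30.6% of the intervals scored 12 or higher (237 of 775) and 62.0% of all its intervals (3439 of 5551) had no neighbour in the other 3 lists. A score of 12 may not mean the same in both libraries, because its unit is not stated. The other 3 lists also differ between them, so these shares are not directly comparable.

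**Figure D1:**
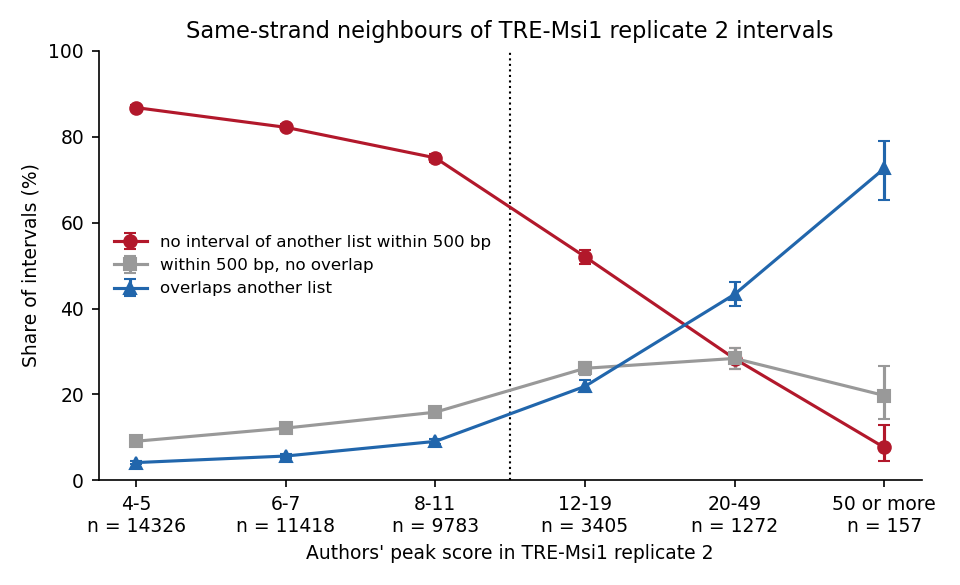
Share of TRE-Msi1 replicate 2 intervals (vertical axis, %) in 6 classes of the authors' score (horizontal axis) that had no same-strand interval of another list within 500 bp, had one within 500 bp without overlap, or overlapped one; bars are 95% Wilson intervals and the dotted line marks the score of 12. The share without a neighbour falls from 86.8% in the lowest class to 7.64% in the highest, and the overlapping share rises from 4.13% to 72.6%.

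The other 2690 high-scoring intervals fell into 1410 that overlapped an interval of another list by at least 1 bp and 1280 that only had one within 500 bp. Overlap was found for 29.2% of high-scoring intervals, against 8.76% of the whole list. These are called overlapping and flanked intervals, and the overlapping ones serve as the comparison. Among all 4834, TRE-Msi1 replicate 1 had an interval within 500 bp of 2413 (49.9%), WT replicate 1 of 1470 (30.4%) and WT replicate 2 of 745 (15.4%). TRE-Msi1 replicate 1 was the only list with a neighbour for 929 of them, the WT lists alone for 277, and both groups had one for 1484. Without TRE-Msi1 replicate 1, the longest list, the private number would be 3073 and the share 63.6%.

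Most private intervals stood near the lower limit of the score. Their median score was 14 (middle 50% of values 13 to 18, highest 149), and 874 of them (40.8%) had a score of 12 or 13. The overlapping intervals had a median of 19 (14 to 28, highest 513), and the flanked ones a median of 16 (13 to 21, highest 155). A score of 20 or more was reached by 372 private (17.4%), 392 flanked (30.6%) and 665 overlapping intervals (47.2%). Just outside the limit, 807 of 1211 intervals at a score of 11 (66.6%) had no neighbour, and just inside it 511 of 861 at a score of 12 (59.3%). The first such intervals by position were at chr1:4877669-4877743 with a score of 11 and at chr1:6207728-6207802 with a score of 12, both on the plus strand. On the limit of distance, 320 high-scoring intervals had their nearest neighbour at over 250 and up to 500 bp and 202 at over 500 and up to 750 bp. The nearest private intervals, at chr16:91659889-91659963 (plus, score 14), chr6:71339676-71339750 (minus, score 16) and chr7:106750618-106750692 (plus, score 19), had a neighbour 502 bp away. An interval at chr8:28262877-28262951 (minus, score 15) missed the set with a WT replicate 2 interval 500 bp away. All private intervals were 75 bp wide except 1 mitochondrial interval of 45 bp.

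The 10 private intervals with the highest scores lay on 6 chromosomes and the mitochondrial genome, 3 on the plus and 7 on the minus strand. The highest was mitochondrial, at chrM:3744-3818 on the plus strand, with a score of 149. Its nearest same-strand intervals were 1153 bp away in WT replicate 1, 1149 bp in WT replicate 2 and 1729 bp in TRE-Msi1 replicate 1. The mitochondrial genome is transcribed from both strands into long precursors that are cut into ribosomal, transfer and messenger RNAs. The next, at chr11:50110709-50110783 on the minus strand, scored 142. It had intervals of all 3 other lists close by, at 1146 bp (WT replicate 1), 824 bp (WT replicate 2) and 1010 bp (TRE-Msi1 replicate 1), and 3 more intervals of its own library within 2000 bp, scored 36 to 60. All 3 other libraries thus had an interval within 1146 bp of it. The third differed in that respect: chr2:121183621-121183695 (plus, score 130) had no other interval of its own library within 2000 bp, a TRE-Msi1 replicate 1 interval 2416 bp away, and WT intervals no closer than 64554 bp (replicate 1) and 757369 bp (replicate 2).

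On chromosome 2 a second interval, at 143815681 to 143815755 on the minus strand, scored 93. TRE-Msi1 replicate 1 had an interval 1167 bp away, and the WT lists at 26611 and 15474 bp. The interval at chr5:90683682-90683756 (minus, score 73) was more isolated, 7696 bp from TRE-Msi1 replicate 1 and 8500 and 25669 bp from the WT lists. At chr1:88253590-88253664 (minus, score 67) all 3 other lists came within 1000 bp, at 739, 737 and 924 bp. The equally scored interval at chr3:98028646-98028720 (plus) had none that close, with 11673 and 1050769 bp to WT replicates 1 and 2 and 11655 bp to TRE-Msi1 replicate 1. Scores of 60 belonged to chr17:45705818-45705892 (minus), with neighbours at 883, 587 and 972 bp in the same order of lists, and to the mitochondrial interval chrM:4935-5009 (minus), with neighbours at 6308, 7209 and 10334 bp. The tenth, at chr11:94158257-94158331 (minus, score 57), lay 1695 bp from WT replicate 2 and 2664 bp from TRE-Msi1 replicate 1, but 421140 bp from WT replicate 1. Of these 10, 6 had an interval of another list within 2000 bp, 4 had all 3 other lists within that distance, and 3 had no WT interval within 10000 bp. For comparison, the 5 highest overlapping intervals scored 253 to 513 and came from 2 places, the mitochondrial genome at 854 to 1479 (plus, 3 intervals) and chromosome 17 at 39983516 to 39984098 (plus, 2 intervals).

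Mitochondrial private intervals were mostly on the minus strand. There were 5, of 15 mitochondrial intervals in the library, all 15 of which scored 12 or higher. Besides the plus-strand interval at 3744 they lay on the minus strand at 4935 to 5009 (score 60), 13009 to 13083 (score 31), 13501 to 13575 (score 24) and 15996 to 16040 (score 16). TRE-Msi1 replicate 2 as a whole had 7 plus-strand and 8 minus-strand mitochondrial intervals. The other libraries had few on the minus strand, with 9 plus and 2 minus in WT replicate 1, 11 and 1 in WT replicate 2 and 16 and 1 in TRE-Msi1 replicate 1. How far the low minus-strand numbers of the other libraries set which mitochondrial intervals were private was not tested.

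Although no other list had a same-strand interval within 500 bp, 1564 private intervals had one within 10000 bp. TRE-Msi1 replicate 1, the longest list, had a same-strand interval at that distance for 1473 of the 2144. On the opposite strand it had one for 986. How many places would lie this close to another list without any link between the libraries was not tested. The nearest same-strand interval of any other list was at up to 2000 bp for 718 (33.5%, 31.5 to 35.5%), beyond that and up to 10000 bp for 846 (39.5%), and beyond that and up to 50000 bp for 518 (24.2%). It was farther for 62 (2.89%, 2.26 to 3.69%). The median gap was 4642 bp to TRE-Msi1 replicate 1, 65873 bp to WT replicate 1 and 86600 bp to WT replicate 2. To either WT list it was 22006 bp, with 767 private intervals (35.8%) at 10000 bp or less and 598 (27.9%, 26.0 to 29.8%) at more than 100000 bp. Only 190 (8.86%) had all 3 other lists within 10000 bp. The most remote on the same strand were chr15:10042588-10042662 (minus, score 12), chr10:69980205-69980279 (minus, score 18) and chr4:8072605-8072679 (minus, score 12). Their nearest same-strand intervals of another list were 183811, 165374 and 155411 bp away. On the opposite strand TRE-Msi1 replicate 1 had intervals closer to them, at 1736, 14893 and 15310 bp in the same order.

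The gaps were shorter for higher scores. At scores of 12 to 13 the median gap to any other list was 4584 bp and to a WT list 32099 bp (n = 874), and at 30 or more these were 1959 and 9574 bp (n = 85). A WT interval within 10000 bp was found for 30.7% (27.7 to 33.8%) of the first group and 50.6% (40.2 to 61.0%) of the second, with 35.7%, 36.0% and 46.7% in the classes 14 to 15, 16 to 19 and 20 to 29. Even among the highest private intervals, then, about as many lacked a WT interval at that distance as had one.

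The intervals of other lists near private ones were mainly on the same strand. Between 500 and 1000 bp away, WT replicate 1 had 84 same-strand and 2 opposite-strand intervals, summed over the 2144 private ones, and WT replicate 2 had 78 and 4. In TRE-Msi1 replicate 1 these numbers were 361 and 64, and in the library itself 564 and 8. Intervals near several private ones are counted for each of them. With distance the same-strand density fell in all 4 lists. The opposite-strand density was higher at 20000 to 50000 bp than at 500 to 1000 bp, except in WT replicate 2, where it was 0.00178 and 0.00187 per kb. In WT replicate 1 the density went from 0.0392 same-strand intervals per kb at 500 to 1000 bp to 0.00622 at 20000 to 50000 bp, where the opposite strand had 0.00175. In TRE-Msi1 replicate 1 it went from 0.168 to 0.0645, close to the 0.0533 of the opposite strand at that distance. In the same bin next to the overlapping intervals, at 500 to 1000 bp, the densities on the same strand were higher, at 0.282 for WT replicate 1, 0.117 for WT replicate 2 and 0.843 for TRE-Msi1 replicate 1, against 0.0392, 0.0364 and 0.168 next to private ones. The choice of the sets by their nearest neighbours bears on this bin too. Across the strands, 46 private intervals (2.15%, 1.61 to 2.85%) had an interval of another list within 500 bp and 3 overlapped one.

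**Figure D2:**
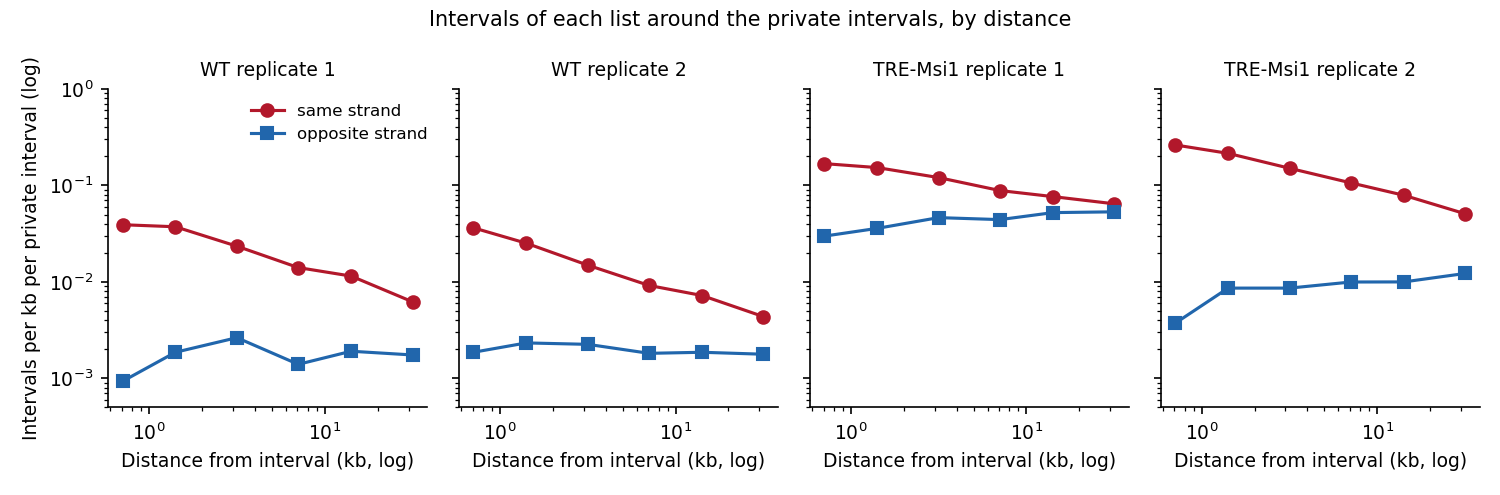
Density of intervals of each list (intervals per kb and per private interval, log axis) against the distance from the 2144 private intervals (kb, log axis, points at the geometric middle of 6 bins from 500 to 50000 bp), on the same strand (circles) and the opposite strand (squares). Same-strand density falls with distance in all 4 panels and lies above the opposite strand in every bin; in TRE-Msi1 replicate 1 the lines nearly meet, at 0.0645 and 0.0533 per kb.

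Up to 2000 bp away, private intervals had less company in their own library than overlapping ones. Farther out, the same-strand density of the library was higher around private intervals. It was 0.151 against 0.133 per kb at 2000 to 5000 bp, and 0.0508 against 0.0414 at 20000 to 50000 bp. Another interval of TRE-Msi1 replicate 2, of any score, lay within 500 bp on the same strand of 416 private intervals (19.4%, 17.8 to 21.1%), and of 671 overlapping ones (47.6%, 45.0 to 50.2%). Within 2000 bp the numbers were 1055 (49.2%, 47.1 to 51.3%) and 999 (70.9%, 68.4 to 73.2%). The difference was present within score classes: at scores of 12 to 13 the shares within 2000 bp were 44.3% (41.0 to 47.6%) of private and 71.4% (65.6 to 76.7%) of overlapping intervals, and at 20 to 49 they were 60.0% (54.9 to 64.9%) and 72.6% (68.7 to 76.2%). The flanked intervals had most company, 82.1% (79.9 to 84.1%). Of the 1055 private intervals with company within 2000 bp, 691 (65.5%) had only intervals scored under 12 around them, 237 (22.5%) had another private interval, and 171 (16.2%) had an interval that overlapped another list. In the whole list, 35527 of the 40361 intervals scored under 12, and 8.76% overlapped another list. These are shares of single intervals. The shares of the 1055 rest on all or any of the intervals around each, so they are not directly comparable. Such shares were not computed for overlapping intervals, so they do not set private intervals apart.

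**Figure D3:**
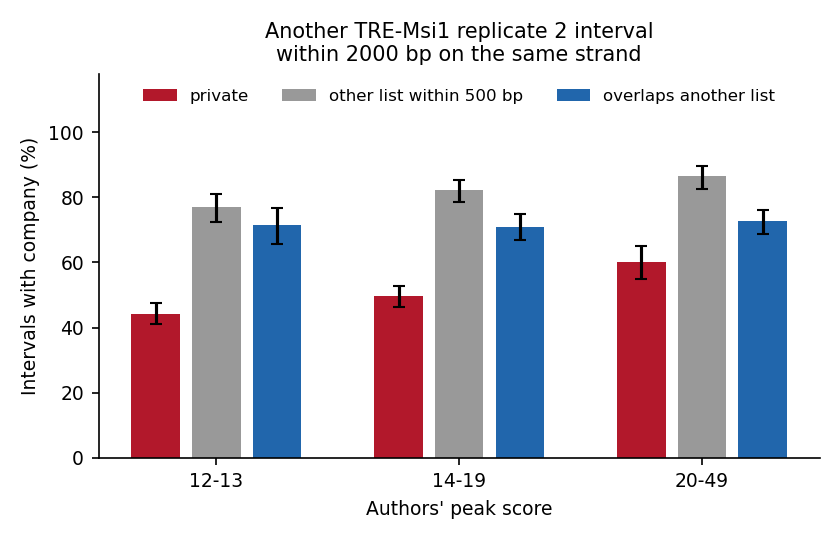
Share of high-scoring intervals (vertical axis, %) with another TRE-Msi1 replicate 2 interval within 2000 bp on the same strand, in 3 classes of the authors' score (horizontal axis), for private, flanked and overlapping intervals; error bars are 95% Wilson intervals. Private intervals are lowest in each class, at 44.3%, 49.6% and 60.0%.

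Fewer private than overlapping intervals lay in loci with others of their set. Joined where they lay up to 10000 bp apart on a strand, they formed 1859 loci, of which 1651 held a single private interval and 208 held 2 or more, with 493 private intervals (23.0%, 21.3 to 24.8%) among them. Loci of 3 or more numbered 48. Joined in the same way within their own set, 577 of 1410 overlapping intervals (40.9%, 38.4 to 43.5%) and 550 of 1280 flanked ones (43.0%, 40.3 to 45.7%) lay in loci of 2 or more. With all 4834 high-scoring intervals joined together it was 2356 (48.7%, 47.3 to 50.1%). The shares within a set thus miss company from the other sets.

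The locus with the most private intervals was chr13:32415036-32426520 on the minus strand. It held 7, scored 12 to 17, and 12 intervals of the library in all. No other list had an interval inside it, on either strand, and the nearest same-strand ones lay 3840 bp away in TRE-Msi1 replicate 1, 3905 bp in WT replicate 1 and 69955 bp in WT replicate 2. A minus-strand locus on the X chromosome at 100661322 to 100677763 held 6, scored 12 to 42, of 8 intervals of the library. It was remote from all other lists, with gaps of 29059 bp to TRE-Msi1 replicate 1, 480891 bp to WT replicate 1 and 312180 bp to WT replicate 2, although TRE-Msi1 replicate 1 had 2 intervals on the opposite strand inside it. On chromosome 9 at 34854952 to 34874362 (minus) there were 6, scored 12 to 39, among 13 intervals of the library. Here WT replicate 2 had 1 and TRE-Msi1 replicate 1 had 2 intervals within the locus, and the nearest WT replicate 1 interval was 1712425 bp away. The most compact was on chromosome 11 at 6369813 to 6371889 (minus), where 6 private intervals scored 14 to 24 lay within 2077 bp and were the only ones of the library there. Other lists had intervals close outside it, at 596 bp (TRE-Msi1 replicate 1) and 972 bp (WT replicate 1). On chromosome 19 at 5825594 to 5838074 (minus) there were 5, scored 12 to 28, of 12 intervals, with 1 WT replicate 2 interval inside and others 770 bp (TRE-Msi1 replicate 1) and 1255 bp (WT replicate 1) beyond its ends. A second locus of 5, at chr9:31244060-31259395 (minus), had a lower summed score (85 against 86), which decided the tie. These 6 loci were on the minus strand, as were 26 of the 48 loci of 3 or more.

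**Figure D4:**
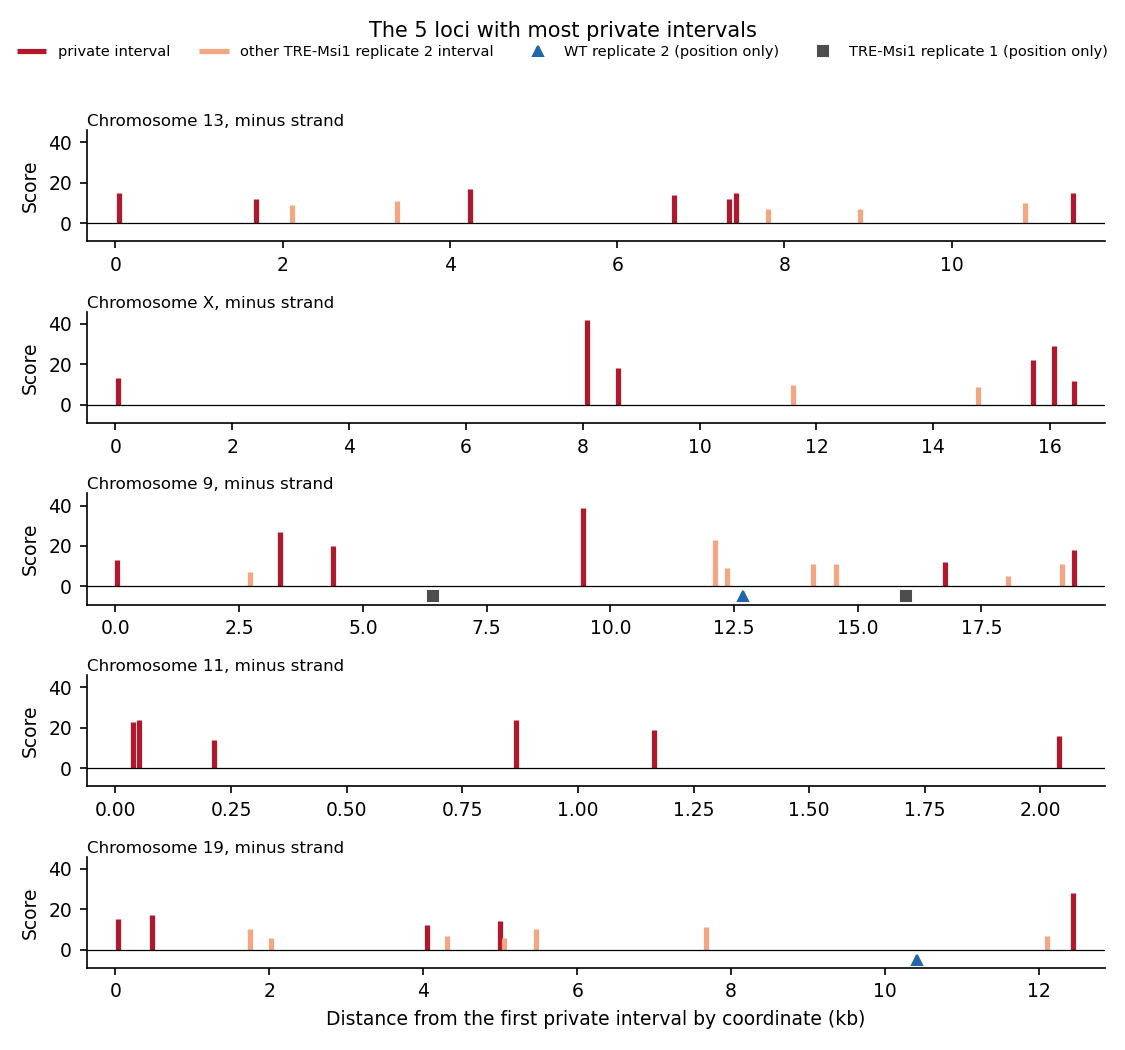
The 5 loci with most private intervals (ties by summed score), each drawn along the distance from its first interval by coordinate (horizontal axis, kb) with the authors' score of each TRE-Msi1 replicate 2 interval as a line (vertical axis), dark for private and light for other intervals; triangles and squares below the line give the position of same-strand WT replicate 2 and TRE-Msi1 replicate 1 intervals. The loci on chromosomes 13 and X hold no same-strand interval of another list and the one on chromosome 9 holds 3; on chromosome 11 the gaps between private intervals are too short for the rule to allow one.

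The strands were near balance among private intervals, with 1045 of 2144 on the plus strand (48.7%, 46.6 to 50.9%), against 51.3% (48.7 to 53.9%) of overlapping and 56.3% (53.5 to 58.9%) of flanked ones. Put another way, 42.0% (40.1 to 44.0%) of the high-scoring plus-strand intervals and 46.8% (44.8 to 48.9%) of the minus-strand ones were private. The balance shifted with distance. Of the 580 high-scoring intervals with no other list within 10000 bp, 31.7% (28.1 to 35.6%) were on the plus strand. With TRE-Msi1 replicate 1 alone as the list to avoid, the share at that distance was 32.2% (28.9 to 35.7%, n = 736), and with the WT lists alone 49.7% (47.4 to 52.0%, n = 1778). The TRE-Msi1 replicate 1 list itself was 70.8% plus-strand, against 50.9 to 51.5% in the other 3, and its part in this shift was not tested beyond these values.

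By chromosome, the private share of high-scoring intervals ranged from 37.0% on chromosome 1 (155 of 419, 32.5 to 41.7%) to 51.9% on the X chromosome (67 of 129, 43.4 to 60.4%), with a median of 45.5% over the 20 numbered and X chromosomes. On chromosome 1 alone the interval did not include the overall 44.4%. The most private intervals in number were on chromosome 11, with 185 of 421 (43.9%). Chromosomes 13 (107 of 213, 50.2%) and 8 (99 of 199, 49.7%) stood next to X at the upper end.

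**Figure D5:**
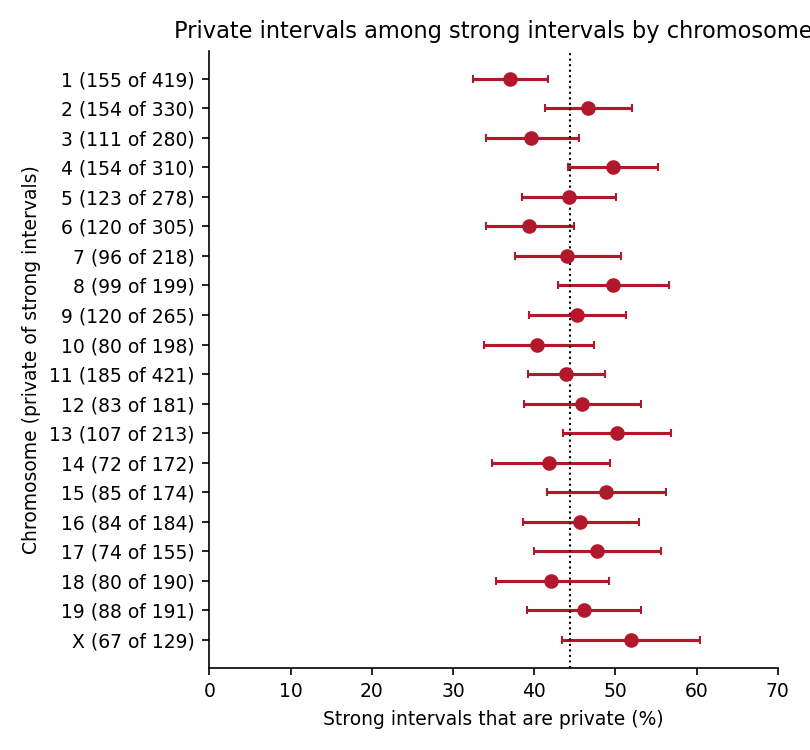
Share of high-scoring TRE-Msi1 replicate 2 intervals that were private (horizontal axis, %) on each numbered chromosome and X (vertical axis, with private and all high-scoring intervals in brackets); bars are 95% Wilson intervals and the dotted line is the overall 44.4%. Chromosome 1, at 37.0%, lies below the line with its whole interval, the only 1 of 20 that does not include it. About 1 of 20 such intervals is expected to miss a value that all share.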

How the data were processed

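The authors deposited a separate peak list for each library, with Bowtie, HOMER and mm9 named in the submitters' processing notes, without versions, settings or roles. Column 5 is the authors' score, in an unstated unit, and was used mainly within the TRE-Msi1 replicate 2 list. It was also used for the share of WT replicate 2 at 12 or higher. In 1 alternative it ranked the TRE-Msi1 replicate 1 list, to cut that list to its highest scores. Gaps were the bases between edges on the same strand, with overlap of at least 1 bp. Neighbour calls were tested on 4834 simulated intervals, where the total without a neighbour differed from the planted total by 0. They were also compared with bedtools (0 differences in 15 comparisons). Coordinates are 1-based. No test was run, since the intervals come from 1 library and the lists chose them. Named regions are the 10 highest-scoring private and 5 highest overlapping intervals, the 5 loci with most private intervals (ties by summed score), those nearest the limits and the 3 most remote; mitochondrial ones were added after their values were seen. The intervals, limits and lists were chosen with earlier results of these data known. Planned gene, transcript-part and motif results, with their gene lists, need mm9 annotation or sequence and were not analysed here. Python 3.11.15, numpy 2.4.6, pandas 2.3.3, matplotlib 3.10.9 and bedtools 2.31.1 were used.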

Additional observations from a re-analysis of the deposited data

How the results depend on the processing

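The number of private intervals (2144) and their share of high-scoring intervals (44.4%) were recomputed under 15 alternatives. The number stayed within 1.5 times in 8 of them. The share stayed within its main Wilson interval (43.0 to 45.8%) in 3 of the 15 and moved outside it in 12. The number moved with the score minimum, to 4278 (54.0%) at 10, 994 (35.3%) at 15, 372 (26.0%) at 20 and 85 (16.3%) at 30. Distance moved it to 3424 (70.8%) with overlap of 1 bp alone, 1426 (29.5%) at 2000 bp and 580 (12%) at 10000 bp. At 100 bp the number, 2802, stayed within 1.5 times while the share moved to 58.0%. Leaving out a library gave 2250 (46.5%) without WT replicate 1, 2278 (47.1%) without WT replicate 2 and 3073 (63.6%) without TRE-Msi1 replicate 1. With the TRE-Msi1 replicate 1 list cut, by its own highest scores, to the length of the TRE-Msi1 replicate 2 list there were 2872 (59.4%). In each run without a library and with the cut list, the number stayed within 1.5 times but the share left its main interval. Either strand (2098), every row (2147) and numbered and X chromosomes alone (2137) left the number within 1.5 times and the share within its main interval. Over 11 alternatives, company within 500 bp ranged from 11.4 to 32.8%, the plus-strand share from 31.7 to 52.9% and the share in loci of 2 or more from 4.71 to 39.0%. The choice of transcripts and the window for motifs were not run, for lack of mm9 annotation and sequence. No paired analysis was possible because the results come from no test and rest on 1 library. Unknown depth limits every statement of absence: a list without an interval at a place does not show that no RNA was recovered there.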
